A study of Gallus gallus with 12 samples.

Results

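Among the abundant transcripts of chicken interdigital tissue, 153 genes lay slightly higher in libraries from tissue that held a Noggin bead than in libraries from tissue that held a control bead. They were chosen from the values themselves. A gene was taken if its mean was at least 100 CPM (reads of the gene per 1000000 reads of the library) over the libraries numbered 1 to 5 of each group, if all 5 Noggin libraries lay above all 5 PBS libraries, and if the mean difference was at most 1 on the log2 scale, a doubling. The table held 30108 genes, of which 1219 reached a mean of 100 CPM and 153 met the whole rule. The choice used the contrast of the beads in numbers 1 to 5, so every value of that contrast below is a description without a test.

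Tissue came from interdigital region 3 of chicken hindlimbs, a strip between 2 digits. It was dissected 12 h after bead implantation at stage 30 of the Hamburger-Hamilton series. The beads had been soaked in Noggin or in phosphate-buffered saline (PBS), and per the labels the PBS beads went into the interdigit of the side opposite to Noggin. The labels name no genotype. Both groups carry a bead. They differ in the protein and, per the labels, in the side, so bead and side cannot be told apart. There were 6 libraries per group, each sequenced by Lasy-Seq, a multiplexed method that reads the ends of transcripts. Nothing in the labels says that libraries with the same number came from 1 embryo, or that different numbers were different embryos.

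Noggin is an extracellular antagonist of BMPs (bone morphogenetic proteins), which it binds and keeps from their receptors. In the limb of birds and mammals, BMPs of the interdigital mesenchyme promote the programmed cell death that frees the digits, and they also act on cartilage formation in the neighbouring digits. A bead that releases Noggin therefore places a local BMP antagonist in tissue that would otherwise regress.

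The rows of the table carry Ensembl chicken gene identifiers, which the files do not pair with symbols, and 0 of 30108 could be matched through the reference gene table. The 153 genes are thus described by level, by change and by library, without functions. The label of the tissue could not be set against its marker genes for the same reason. The 2 genes with the largest gain in mean CPM are given by identifier.

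Library depth was 2019491 to 3513398 reads for Noggin 1 to 5 and 1624309 to 2767417 reads for PBS 1 to 5, and the libraries numbered 6 held 1946971 (Noggin) and 2317148 (PBS). The Noggin library was the deeper in numbers 2 to 5 and the PBS library in numbers 1 and 6. At these depths the least covered of the 153 genes had at least 83 reads in each of the 10 libraries, and the median gene had at least 309. The counting error of a mean log2 difference was 0.041 at the median gene and 0.063 at most. It covers counting alone, since nothing in the sources used here says that reads were counted by molecule.

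The libraries numbered 6 went against their labels in the 153 genes, and the rule did not use them. Their values are given apart, and each library is called by its label. No label says that they were exchanged, and they were not regrouped.

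The 153 genes together held more of the reads with Noggin in each of the numbers 1 to 5. Their share of all reads was 7.03% in Noggin 1, 7.32% in Noggin 2, 7.07% in Noggin 3, 7.05% in Noggin 4 and 7.33% in Noggin 5. It was 5.88% in PBS 1, 5.66% in PBS 2, 5.81% in PBS 3, 5.78% in PBS 4 and 5.79% in PBS 5. The lowest Noggin library thus lay above the highest PBS library, as the rule requires of every gene. The rule also favours a small spread within each group, so nothing is read from either. The group values were 7.16 ± 0.152% and 5.78 ± 0.0771% (mean ± SD, n = 5 each). The gain was 1.38 percentage points of all reads, or 23.8% more reads for these genes than with PBS. In tissue, more cells of a type and more RNA per cell cannot be told apart.

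**Figure D1:**
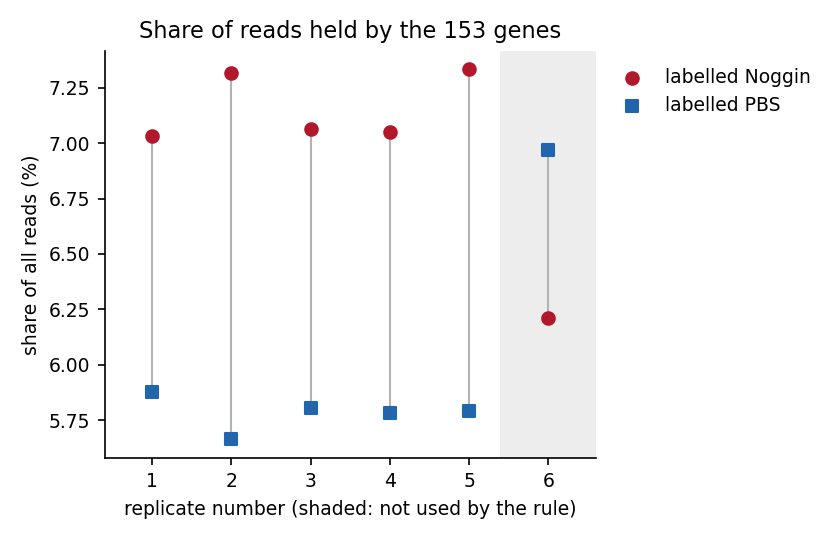
Share of all reads (%, vertical axis, which does not start at 0) held by the 153 genes in each of the 12 libraries, by replicate number. Grey lines join the libraries of a number. Noggin lies at 7.03% to 7.33% and PBS at 5.66% to 5.88% in numbers 1 to 5, while in number 6 (shaded) the library labelled Noggin is at 6.21% and the one labelled PBS at 6.97%.

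The gain differed between the numbers by less than its size. It was 1.15 percentage points in number 1, 1.65 in number 2, 1.26 in number 3, 1.27 in number 4 and 1.54 in number 5, an SD of 0.212 over the 5. Number 1, where the PBS library was the deeper, gave the smallest gain. The part of depth in the size of the gain was not tested.

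Of the 1219 abundant genes, 165 (13.5%) lay higher in all 5 Noggin libraries and 73 (5.99%) lower. Over the 10574 genes tested the shares were 5.19% higher and 3.87% lower. The limit of 1 on the log2 scale left out 12 of the 165 and kept 153, or 12.6% of the abundant genes. Since the rule is this separation, nothing is read from these shares.

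The limits of the rule fell in continuous stretches of values. The lowest mean inside was 101.4 CPM, and a gene that met the other conditions lay outside at 99.4 CPM. The largest difference inside was 0.95 on the log2 scale and the smallest outside was 1.02. The smallest distance between the lowest Noggin and the highest PBS library was 0.00017 on the log2 scale inside, against an overlap of the same order (-0.00018) just outside. At the median gene that distance was 0.086.

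The differences were small. The median difference over the 153 genes was 0.35 on the log2 scale, a 1.27-fold level, with quartiles of 0.25 and 0.50 (1.19-fold and 1.41-fold). The extremes were 0.090 (1.06-fold) and 0.95 (1.93-fold). The median was 0.059 over all abundant genes and 0.0086 over all genes tested. The abundant genes whose groups overlapped, 981 in number, had a median of 0.042 and quartiles of -0.051 and 0.13. The list as a whole thus lay above both medians, as its rule requires.

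The SD of the difference over the 153 genes was 0.19 on the log2 scale. Counting error came to 5.31% of that variance, and the spread of each gene's difference over the 5 numbers, which includes counting error, came to 16.5%. These shares describe values that the rule used and are no test of unequal differences. The rule cuts the spread at both ends, since small differences fail to separate and those above 1 are left out. Within these limits, 38 genes had differences of at least 0.5, and 38 had differences under 0.25.

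For the 10 pairs among the numbers 1 to 5, Spearman's rho between the differences of the 153 genes was 0.45 to 0.60, with a median of 0.51. These values come from the libraries that chose the genes, and the rule asks for a difference of the same sign in each of them, so nothing is read from their size. They run across genes, which are not independent replicates, and all pairs share the method and its gene-wise depth. For a single gene, the SD of the difference over the 5 numbers was 0.14 at the median, where counting alone gives 0.091. In 112 of the 153 genes the Noggin library was higher by over 0.1 in every number.

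The more abundant of these genes had the smaller differences. Genes of 100 to 200 CPM, 68 of the 153, had a median difference of 0.41 on the log2 scale. The 60 genes of 200 to 500 CPM had a median of 0.31, and the 25 genes above 500 CPM one of 0.25. Spearman's rho between difference and mean CPM was -0.38 over the 153 genes. Separation of the groups can be met by a smaller difference where counts are higher, so this order is not independent of the rule. They were 68 of 680 genes of 100 to 200 CPM, 60 of 324 of 200 to 500 CPM and 25 of 215 above that. CPM here orders genes by reads, since gene lengths were not used.

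**Figure D2:**
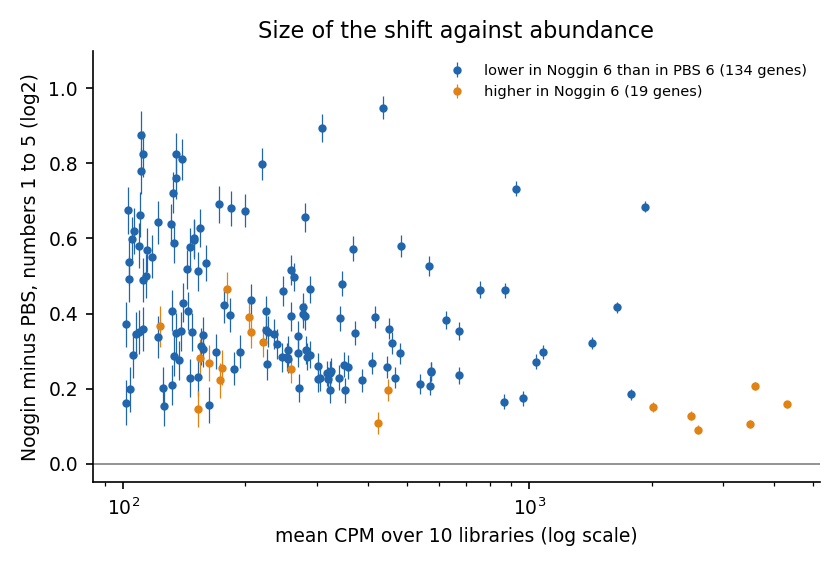
Mean difference between Noggin and PBS in numbers 1 to 5 (log2 of CPM + 1, vertical axis) against mean CPM over the same 10 libraries (horizontal axis, log scale), 1 point per gene for the 153 genes. Bars are ± 1 counting error. The differences run from 0.090 to 0.95, and the 6 genes above 2000 CPM all lie at or below 0.21. Colour gives the direction in number 6, where 134 genes were lower and 19 higher in the library labelled Noggin.

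The gain in reads was spread over many genes. The median gene gained 56.3 CPM, with quartiles of 40.7 and 89.5 CPM. The 10 largest gains made up 30.3%, and 26 genes accounted for 50% of it. The highest of the 153 ranked 17th of all genes by mean CPM, and 6 were among the 100 most abundant. The 38 genes with differences of at least 0.5 carried 31.6% of the gain, with a median level of 145.02 CPM.

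The largest gain was that of ENSGALG00010024682. It stood at 2347, 2404, 2434, 2226 and 2435 CPM in Noggin 1 to 5 and at 1613, 1349, 1462, 1508 and 1444 CPM in PBS 1 to 5. The lowest Noggin library (number 4) lay far above the highest PBS library (number 1). The rule requires this order, and the gene was named for its large gain, so nothing is read from the distance. The means were 2369 ± 87.3 and 1475 ± 96.4 CPM (SD, n = 5 each), a difference of 0.68 on the log2 scale. Its gain of 893.9 CPM was followed by a far smaller one.

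The gain that followed, of 515.8 CPM, was that of ENSGALG00010009170. It stood at 3895, 4156, 3619, 3668 and 3927 CPM in Noggin 1 to 5 and at 3303, 3544, 3231, 3204 and 3404 CPM in PBS 1 to 5. The groups did not overlap, as the rule requires, but PBS 2 at 3544 CPM came close to Noggin 3 at 3619 CPM. The means were 3853 ± 216.9 and 3337 ± 139.02 CPM (SD, n = 5 each), a difference of 0.21 on the log2 scale. The size was alike in all 5 numbers, with an SD of 0.030 on the log2 scale.

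Single libraries moved as a whole only slightly. Each gene was set against its own mean over the 10 libraries, and the median of the 153 genes was 0.13, 0.19, 0.14, 0.16 and 0.23 on the log2 scale in Noggin 1 to 5. It was -0.13, -0.24, -0.17, -0.16 and -0.15 in PBS 1 to 5. PBS 2 was the lowest and Noggin 5 the highest. In the abundant genes with overlapping groups, the same 2 libraries were also the extremes of the 10, at -0.058 and 0.064. The part of that general displacement in the values of PBS 2 and Noggin 5 was not tested.

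**Figure D3:**
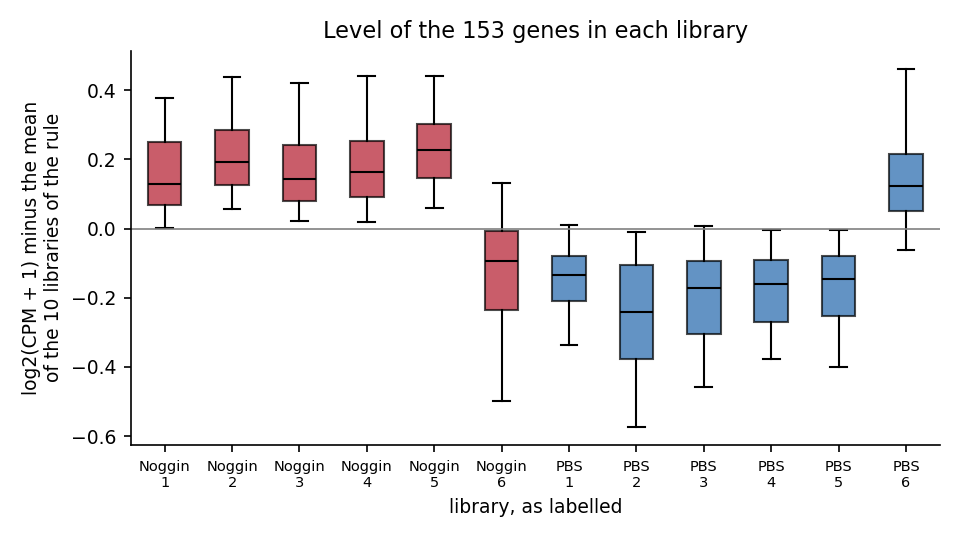
Level of the 153 genes in each of the 12 libraries, as log2(CPM + 1) minus the gene's mean over the 10 libraries of the rule. Boxes span the quartiles with the median as a line, and whiskers run from the lowest to the highest 5% of genes. Medians are 0.13 to 0.23 in Noggin 1 to 5 and -0.24 to -0.13 in PBS 1 to 5, with -0.094 in the library labelled Noggin 6 and 0.12 in the one labelled PBS 6.

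Averaged over both beads, the level of these genes barely differed between numbers. The median of the 153 genes lay between -0.026 (number 2) and 0.029 (number 5) on the log2 scale around the mean of the 6 numbers. The range of a gene's level over the 6 numbers was 0.21 at the median, against 0.25 for the abundant genes with overlapping groups. The rule favours genes that vary little within a group, so this comparison is not independent of it.

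Because CPM add up to the same total in every library, a gain of these genes is matched by losses elsewhere. The 55 abundant genes that lay lower in all 5 Noggin libraries by up to 2-fold changed by -0.731 percentage points of the reads with Noggin. The 18 that lay lower by over 2-fold changed by -0.702 percentage points. The 12 abundant genes raised by over 2-fold gained 0.172 percentage points. These 3 classes are chosen by the same contrast, and together with the 153 genes their changes sum to 0.114 percentage points.

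The rest of the table, which holds most of the reads, moved little on average but varied more in percentage points. The 981 abundant genes with overlapping groups held 61.7% of the reads with Noggin and 61.9% with PBS, and the difference of -0.167 percentage points had an SD of 1.09 over the 5 numbers. The 28889 genes under 100 CPM changed by 0.0534 percentage points with an SD of 0.738. In number 1 these 2 classes moved by 1.73 and -1.23 percentage points, each the extreme of the 5 numbers. The 153 genes gained 1.15 percentage points there, the least of the 5 numbers.

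**Figure D4:**
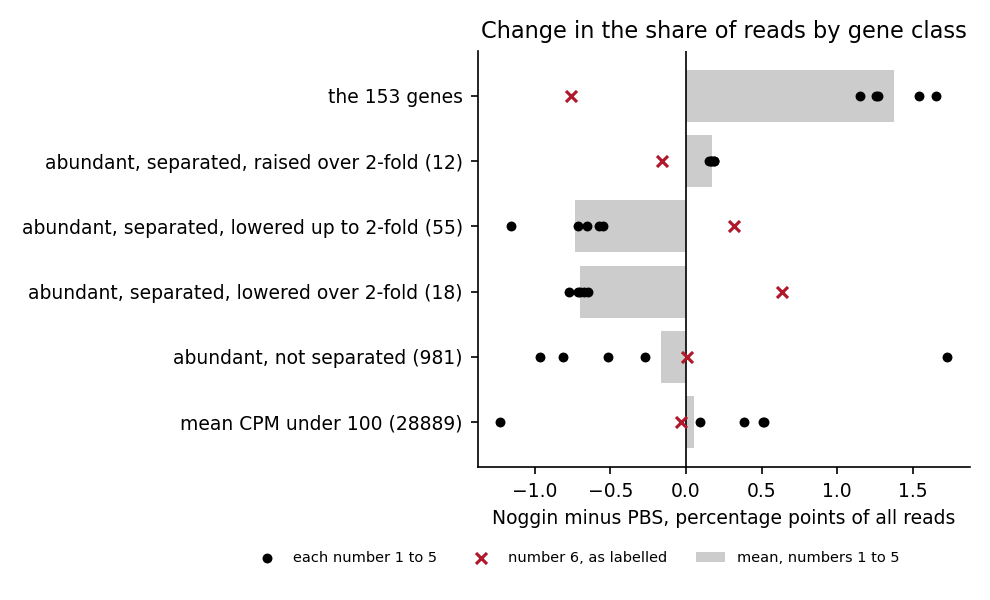
Change in the share of reads between Noggin and PBS, in percentage points of all reads, for 6 classes of genes that together make up the table (gene number in brackets). Bars are means over numbers 1 to 5, black points are single numbers and crosses are number 6 as labelled. The 153 genes gain 1.38 points and the 2 lowered classes change by -0.731 and -0.702 points, while the 4 classes chosen by separation lie on the opposite side of 0 in number 6.

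How large the difference is outside the libraries that chose the genes was read by applying the rule to 4 of the numbers 1 to 5 and taking the difference from the number left out. This gave 186 to 210 genes, of which 152 or 153 belonged to the 153. In the number left out, 86.7% to 97.3% of them were higher in the Noggin library, against 50%, 59.7%, 50.7%, 49.1% and 62% of the other abundant genes in numbers 1 to 5. The median difference was 0.21 when number 1 was left out, 0.38 for number 2, 0.27 for number 3, 0.25 for number 4 and 0.33 for number 5. In the 4 numbers that chose the genes it was 0.30 to 0.33. Numbers 1 to 5 were themselves set apart after number 6 was seen to differ, so they are not free of choice and these values are no test. In number 6, 81.6% to 85.9% of the genes so chosen were lower in the library labelled Noggin 6.

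Number 6 gave the opposite direction. Of the 153 genes, 134 (87.6%) were lower in the library labelled Noggin 6 than in the library labelled PBS 6, and 19 were higher. Among the 1066 other abundant genes 50.1% were lower, and among all genes tested 50%. A difference of over 0.2 on the log2 scale was found in 88 of the 153 towards PBS and in 2 towards Noggin. For the other abundant genes these shares were 16.2% towards PBS and 16.1% towards Noggin.

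The median difference in number 6 was -0.23 on the log2 scale, with quartiles of -0.43 and -0.12, and that of the other abundant genes was -0.0012. The share of reads was 6.21% in the library labelled Noggin 6 and 6.97% in that labelled PBS 6, a difference of -0.758 percentage points. Both values lie between the groups of numbers 1 to 5, the first nearer PBS and the second nearer Noggin. The library labelled PBS 6 was also the deeper one, and the part of depth in this difference was not tested. There is 1 library per bead in number 6, so the counts and differences of number 6 have no replicate check. Its direction was also known beforehand, since number 6 was set apart after it was seen to differ.

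Counted by gene, 117 of the 153 had a level in the library labelled Noggin 6 that was nearer the mean of PBS 1 to 5 than that of Noggin 1 to 5. In the library labelled PBS 6, 134 were nearer the mean of Noggin 1 to 5. Both held for 101 genes, and in 3 genes neither did. The library labelled Noggin 6 lay within or below the range of PBS 1 to 5 in 94 genes, and the library labelled PBS 6 within or above that of Noggin 1 to 5 in 103. These counts were not made for the other abundant genes. The means and ranges they are set against come from values that the rule used, so nothing is read from their size.

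The size of the difference in numbers 1 to 5 went with the direction in number 6. All 38 genes with a difference of at least 0.5 were lower in the library labelled Noggin 6, with a median of -0.52. Of the 77 genes between 0.25 and 0.5, 68 were lower, with a median of -0.19. Of the 38 genes under 0.25, 28 were lower, with a median of -0.15. Across the 153 genes, Spearman's rho between the difference in number 6 and that in each of the numbers 1 to 5 was -0.56 to -0.38. In the abundant genes with overlapping groups it was -0.30 to -0.24. The sizes in numbers 1 to 5 are values that the rule used, and number 6 was set apart after it was seen to differ. Genes are also not independent replicates, so nothing is read from this order.

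**Figure D5:**
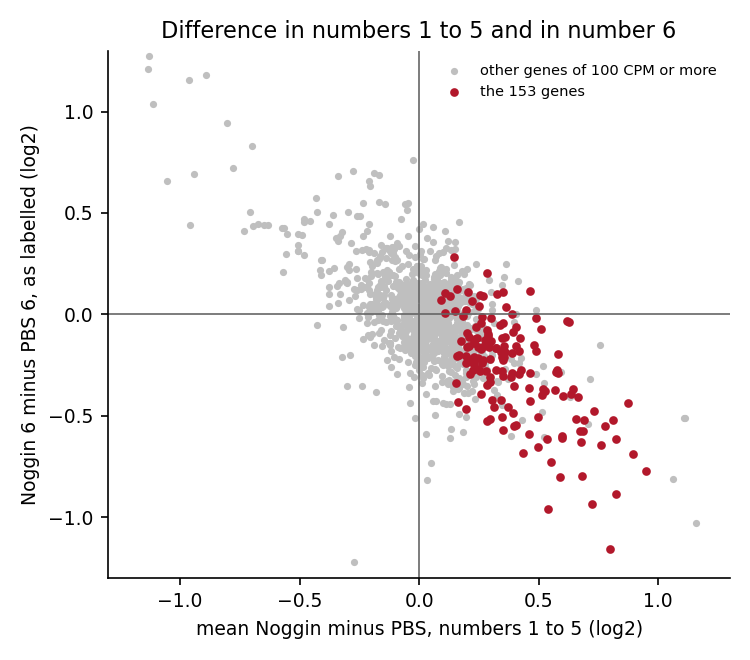
Difference between the libraries labelled Noggin 6 and PBS 6 (vertical axis) against the mean difference in numbers 1 to 5 (horizontal axis), both on the log2(CPM + 1) scale, for the 153 genes (red) and the other genes of at least 100 CPM (grey). Axes end at 1.3 in each direction, which leaves out 28 other genes. Of the 153 genes 134 lie below 0 in number 6, including all 38 that differ by at least 0.5 in numbers 1 to 5.

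A test across all genes was made of number 6 alone, with the 2 lone libraries assumed to vary like those of numbers 1 to 5. It called 79 of 10574 genes, 43 of them (0.407%) lower in the library labelled Noggin 6 (limma, adjusted p below 0.05 by Benjamini-Hochberg). Of the 153 genes, 7 were called lower and 0 higher, and without adjustment 50 lay lower and 0 higher at a p below 0.05. The unadjusted share was 4.32% for all genes tested and 3.1% for the other abundant genes. The standard error was 0.17 on the log2 scale at the median of the 153 genes, and the median difference of -0.23 lay within 2 of these errors. The spread comes from libraries that the rule used, and the rule favours a small spread. Number 6 was set apart after it was seen to differ, so its direction was known before this test. Nothing is read from the counts of genes called. With the replicate number as a block, more genes were called lower than in the main fit, both in all and among the 153. By limma-voom on the recovered reads fewer were called lower than in that fit, again both in all and among the 153.

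The 2 genes named above parted in number 6. The library labelled Noggin 6 held ENSGALG00010024682 at 1606 CPM, inside the range of PBS 1 to 5, and the library labelled PBS 6 held it at 2398 CPM, inside the range of Noggin 1 to 5. The difference was -0.58 on the log2 scale, from 1 library per bead. The gene was named for its gain in numbers 1 to 5, which the rule used. ENSGALG00010009170 stood at 4106 and 3802 CPM. Both of these values lie above all PBS libraries of numbers 1 to 5 and within the range of Noggin 1 to 5. Their difference was 0.11, again from 1 library per bead.

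Of the 12 genes of at least 1000 CPM, 6 were lower and 6 higher in the library labelled Noggin 6. The 6 higher ones are the genes of at least 2000 CPM, a limit chosen after their values in number 6 were seen, and ENSGALG00010024682 lies just under it. The 6 genes above it had differences of 0.090 to 0.21 in numbers 1 to 5 and of 0.0049 to 0.13 in the same direction in number 6. Their share of reads was 1.94 ± 0.0535% with Noggin and 1.76 ± 0.0453% with PBS in numbers 1 to 5 (SD, n = 5 each). It was 1.99% in the library labelled Noggin 6 and 1.88% in that labelled PBS 6. Among the other genes of this abundance 70 of 94 (74.5%) were also higher in the library labelled Noggin 6. Since the limit was chosen on the values of number 6, nothing is read from the direction of the 6 genes. None of the 6 passed the test of number 6, with an adjusted p of at least 0.865 by limma.

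The remaining 147 genes carried 86.7% of the gain in numbers 1 to 5. Their share of reads was 5.22 ± 0.116% with Noggin and 4.03 ± 0.105% with PBS (SD, n = 5 each). They were set apart by a limit that number 6 had shaped, so their level in number 6 is not given.

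The 19 genes that were higher in the library labelled Noggin 6 had a difference in numbers 1 to 5 of 0.22 at the median and 0.46 at most.

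With number 6 included as labelled, the rule of full separation was met by 11 genes, all of them among the 153. Over all 12 libraries the gain of the 153 genes was 1.02 percentage points and the median difference 0.25 on the log2 scale.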

How the data were processed

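RNA-seq values of 12 libraries (6 Noggin, 6 PBS) were analysed, prepared by Lasy-Seq (version 1.1) from 180 ng of RNA, per the labels' protocols. Salmon, BWA (0.7.17-r1188) and fastp (0.21.0) appear in the submitters' processing notes. Build, annotation and counting options: not given in the sources used here. The values the authors deposited are natural logs, since the exponential minus 1 summed to 1000000 in every column, so they were read as the natural log of (CPM + 1). All values above 0 were whole multiples of 1 read within 0.001 read, which gave totals of 1624309 to 3513398 reads. Groups came from the titles and columns from library codes, and all columns were used.

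Log2 differences are on the log2(CPM + 1) scale without rescaling. The added 1 understates changes of low genes. The number 6 contrast was fitted with limma 3.58.1 in R 4.3.3 (trend, robust) on CPM after TMM scaling (trimmed means of M-values, factors 0.981 to 1.03), with 4 levels (Noggin 1 to 5, PBS 1 to 5, and each library numbered 6) and Benjamini-Hochberg adjustment. The 10574 genes tested reached 4.23 CPM in 6 or more libraries and had 15 or more reads in all. The design kept a count test for a table of counts, and limma was used because the values are logs. The fit of the number 6 contrast was tested on simulated data. Other computations used Python 3.11.15.

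The members, the gene lists and the tests were chosen with earlier results of these data known. Named genes were to be those with symbols, and with none, the 2 members of largest gain. The gene lists, cell type markers included, were not tested, since identifiers have no symbols. No 2 libraries were duplicates (chi-square of reads per degree of freedom at least 2.83 over 66 pairs). Nothing says that libraries of a group came from separate embryos, and p-values cover only the spread seen between libraries, which may be technical.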

Additional observations from a re-analysis of the deposited data

Results flagged for a closer look

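Of 10 groups of 6 library values examined, 6 held a library far from the others, and about 1 in 20 would by chance in groups not chosen on their values. That rate does not hold for the measures of the 153 genes, since the rule used numbers 1 to 5, which lie close together by construction, and not number 6. The 6 cases are the libraries numbered 6 on 3 measures that share genes, and they are not independent. In the share of reads held by the 153 genes, the library labelled Noggin 6 (6.21%) was far below Noggin 1 to 5, and the library labelled PBS 6 (6.97%) was far above PBS 1 to 5. The median level of these genes relative to their own means placed the same libraries apart, at -0.094 and 0.12 on the log2 scale. ENSGALG00010024682 did so too, with 1606 CPM (labelled Noggin 6) and 2398 CPM (labelled PBS 6). Total reads and ENSGALG00010009170 gave no distant library.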

How the results depend on the processing

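The rule was met by 164 genes under TMM scaling (147 of them among the 153) and by 142 under median-of-ratios scaling (135 among the 153). It gave 255 genes at a mean of at least 50 CPM, 85 at 200 CPM, 11 with all 12 libraries as labelled and 164 to 182 without 1 library. The median difference was 0.34 to 0.37 under the scalings and 0.32 to 0.36 without 1 library, and the gain 1.33 to 1.41 percentage points without 1 library. Including number 6 as labelled lowered them to 0.25 and 1.02. Under both scalings 134 genes were lower in the library labelled Noggin 6. The number 6 contrast called 71 to 100 genes without 1 library, and 40 by limma-voom, higher and lower ones together. The direction of the 2 named genes held under all alternatives run, although ENSGALG00010024682 fell to a difference of 0.47 with number 6 included. Without 1 library, or with 0.5 added to CPM in place of 1, the direction could not reverse. The rule sets all of its Noggin libraries above all of its PBS libraries. The number 6 difference of these genes does not use the libraries left out, so it could not change there. Nothing is read from the direction under these alternatives. Without a low-count filter, fewer genes were called lower in number 6 than in the main fit, both in all and among the 153. The reading of the number left out was added after the data were seen. With 1 library per bead, small changes in number 6 may be missed. Detection of changes under 0.5 on the log2 scale was not simulated.

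Replicate numbers were not treated as pairs in the main fit, although same-numbered libraries shared part of their variation. Their deviations correlated at 0.0804 to 0.283 over the genes tested, against 0.0115 at most for libraries of different numbers. For 10 of 10 libraries the best partner carried the same number. A value of 0.1 had been required in every number for pairing, and number 3 (0.0804) fell short. The values given per number above still subtract same-numbered libraries. Asking for Noggin above PBS within each number, as a replicate block, gave 309 genes, the 153 included. With the replicate block the number 6 contrast called 133 genes, higher and lower ones together.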
